A study of Homo sapiens with 3 samples.

Results

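Molecular chaperones bind proteins that are unfolded, newly made or damaged and help them to reach or keep their folded state. In the cytosol, HSP70 proteins take up client proteins that J proteins deliver, nucleotide exchange factors of the HSP110 and BAG families release them, HSP90 matures kinases and steroid receptors with the help of co-chaperones, and the TRiC ring folds actin and tubulin inside its cavity. Mitochondria hold their own HSP70, HSP90 and chaperonin, and heat shock factors switch on many of these genes when unfolded proteins build up. The genes described here are 42 cytosolic and mitochondrial chaperones, co-chaperones and heat shock factors, out of 18216 protein-coding genes with a probe on the array. They were found by matching the RefSeq accession of each probe to a gene symbol, and all 42 had at least 1 probe.

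RNA came from A549 cells, a line of human lung adenocarcinoma grown in RPMI medium, and was hybridised to Agilent expression arrays in a single colour (Cy3). The 3 groups were cells given the transfection reagent alone (mock), cells transfected with *miR-139-5p* and cells transfected with *miR-139-3p*, with the precursors at 10 nM as the study's methods state for all of its miRNA precursors. None of the 3 received a control precursor. Against mock, the effect of a strand and that of transfecting any small RNA therefore cannot be told apart. Each group was 1 array, so no difference below has a replicate check, no test was possible and no p-value is given. Slide 1 held mock beside *miR-139-5p* and slide 2 held *miR-139-3p*, so the effect of the slide and that of *miR-139-3p* cannot be told apart. Values for the arrays are given below in the order mock, *miR-139-5p*, *miR-139-3p* unless named. The share of the 60901 spots other than controls that stood well above background was 49.9%, 48.1% and 53.1%, and 0 were saturated.

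The 2 strands of the *miR-139* hairpin were the agents compared, and their mature sequences from RefSeq (GRCh38.p14, minus strand of chromosome 11) are shown with the seed, bases 2 to 8, in capitals. The seeds differ.
hsa-miR-139-5p at chr11:72615102-72615124: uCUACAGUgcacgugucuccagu
hsa-miR-139-3p at chr11:72615066-72615088: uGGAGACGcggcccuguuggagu

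Markers named for A549, an epithelial line, were well above background for 9 of 9 genes on each array, among them a probe of *KRT18* at 789, 528 and 525 times the 75th percentile of the array's signals. Summed over the 9 genes, the brightest probes reached 2325, 1994 and 1574 times the 75th percentile. These genes did not share a direction. *EPCAM* was at 2.33, 2.62 and 4.56, *CDH1* at 3.75, 2.56 and 4.83 and *KRT19* at 88.9, 61.8 and 100.9 times the 75th percentile. The brightest probes of *NQO1* and *ALDH1A1* were also above mock with *miR-139-3p*, while those of *KRT8*, *KRT18*, *AKR1B10* and *AKR1C1* were below it. Of the markers of other cells, *PECAM1*, *COL3A1* and *DCN* were not well above background on any array. The endothelial gene *CDH5* was on each, at 0.155, 0.129 and 0.310 times the 75th percentile, as was *PTPRC* of blood cells, with its brightest probe at 0.11, 0.114 and 0.249, while *CD3E* was on the *miR-139-3p* array alone. The fibroblast gene *COL1A1* was well above background on each array, at 0.428, 1.14 and 0.280 times the 75th percentile in the same order. The 3 fibroblast genes summed to 0.452, 1.17 and 0.312, the 2 endothelial genes to 0.174, 0.154 and 0.323, and *HBB* to 0.165, 0.0326 and 0.0192, where it was well above background on the mock array alone. Their part in the values below was not tested.

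The first comparison asked how the chaperone genes stood in cells given *miR-139-3p*, set against mock. Of the 41 genes with a value, 16 were lower by more than 0.5 on the log2 scale and 4 were higher. The lower genes took in 5 genes of the HSP70 family, 4 subunits of TRiC and the co-chaperones *BAG3*, *STIP1* and *AHSA1*, and the higher ones were *HSPB8*, *DNAJB4*, *HSPA9* and *HSPA4L*. Of these 20 genes 7 came inside the threshold under some alternative, *HSF2* under 4 of 11, *HSPA4L* under 3, *DNAJB4*, *HSPA9*, *HSPA1A* and *HSPB1* under 2 and *CCT5* under 1, while 13 others went past it under some alternative. Among 13551 protein-coding genes measured in the same way, 30.5% were lower and 23 percent were higher past the same fold, so that much of the transcriptome lay past it. The shares of the chaperone genes were 39.0% lower and 9.76% higher. Their median was -0.46, against -0.13 for all protein-coding genes, a gap of -0.33.

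The chaperone genes were mostly bright, which bears on these shares. When protein-coding genes were divided by mean signal into 4 classes of equal size, 4, 4, 8 and 25 of the 41 chaperone genes fell in the classes from dim to bright. In the brightest class 36.7% of all protein-coding genes were lower and 9.45% were higher. The 25 chaperone genes of that class gave 10 lower and 1 higher, with a median of -0.46 against -0.31 for the class. The share of lower chaperone genes in that class was thus near that of other genes as bright. In the next class 5 of 8 were lower and 0 higher, against 36.2% and 13.9% of all protein-coding genes, with medians of -0.79 and -0.25. The dimmest class gave 1 lower and 1 higher of 4, beside 23.6% lower and 35.8% higher of all protein-coding genes. The class above it gave 0 lower and 2 higher of 4, beside 32.0% lower and 19.45% higher. No result about the group is drawn from these counts. The brightest class was taken as a background after seeing the data.

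**Figure D1:**
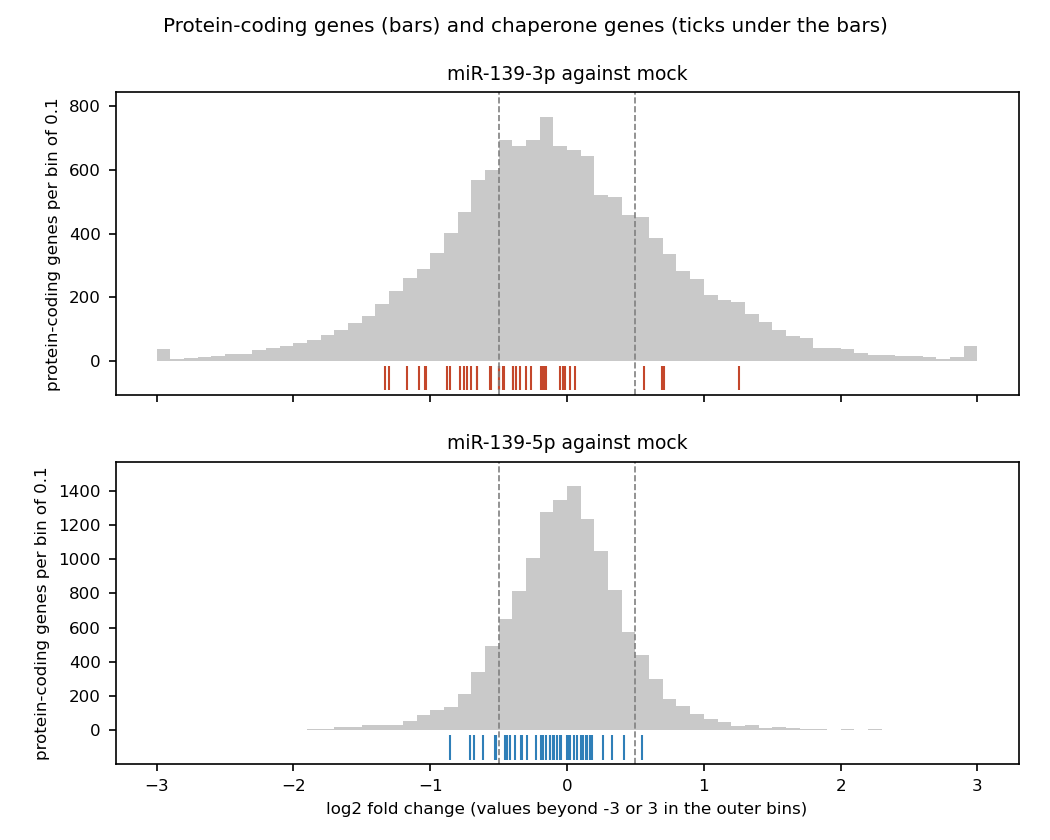
Number of protein-coding genes (grey bars, bins of 0.1) by log2 fold change against mock for *miR-139-3p* (top) and *miR-139-5p* (bottom), with 1 tick under the bars for each chaperone gene and dashed lines at 0.5 to either side of 0. The distribution for *miR-139-3p* is the wider, with 30.5% of genes lower past the line against 12.2% for *miR-139-5p*, and the chaperone medians are -0.46 and -0.11.

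The counts depended on the scaling between arrays. With none the median of all protein-coding genes was -0.34 and 26 chaperone genes were lower against 2 higher, where 41.0% of all protein-coding genes were lower and 16.6% higher. Scaled to the median signal of the E1A spike-in probes on each array, the counts were 14 and 4, beside 27.2% lower and 25.4% higher of all protein-coding genes, yet scaled to the median difference of the same 7 probes, an alternative chosen after seeing the data, they were 26 and 1, beside 42.3% lower and 15.9% higher of all protein-coding genes. Scaled to the 75th percentile over the probes detected on all arrays, they were 14 and 4, and the protein-coding genes turned to 24.5% lower and 27.8% higher with a median of 0.01. Relative to the median of all protein-coding genes, the chaperone median lay between -0.51 and -0.27 over all processing alternatives. The -0.51 came with no filter on dim probes. None of these alternatives matched genes by brightness, and in the brightest class the medians were closer, at -0.46 and -0.31. The counts by role that follow stand beside 30.5% lower and 23 percent higher of all protein-coding genes, and under the alternatives named with them beside 41.0% and 16.6% (no scaling), 42.3% and 15.9% (spike-in scaling by the median difference), 27.2% and 25.4% (by median signal), 32.1% and 19.7% (quantile normalization), 21.3% and 8.82% (normexp background correction) and 31.0% and 23.3% (brightest probe of each gene).

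**Figure D2:**
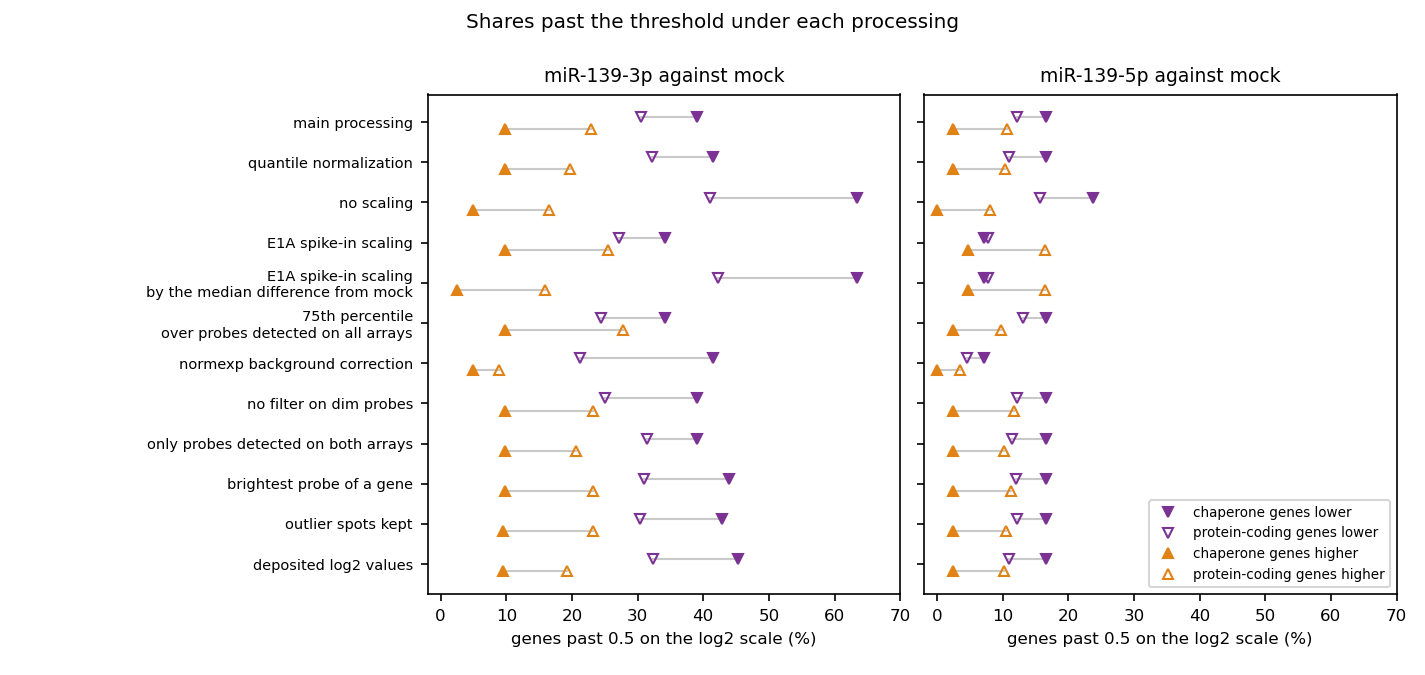
Share of genes lower (downward triangles) and higher (upward triangles) by more than 0.5 on the log2 scale against mock, for chaperone genes (filled) and all protein-coding genes (open), under the main processing and each alternative at this threshold, with *miR-139-3p* on the left and *miR-139-5p* on the right. For *miR-139-3p* the share of lower chaperone genes runs from 34.1% to 63.4% and lies above that of all protein-coding genes in each row, while for *miR-139-5p* it falls just under it with spike-in scaling (7.14% against 7.80%).

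HSP70 genes, which encode the ATP-driven chaperones that hold unfolded stretches, gave 5 lower and 1 higher of 9, or 7 and 0 with no scaling and with spike-in scaling by the median difference. Their median of -0.66 kept its sign under each scaling. The constitutive cytosolic form *HSPA8* measured 62.2, 43.1 and 34.0 times the array's 75th percentile. Mock was the highest of the 3 arrays, and the log2 fold change was -0.87 with *miR-139-3p* where it was -0.53 with *miR-139-5p*. *HSPA1A*, a stress-inducible form, was measured by 1 probe in 10 spots and stood at 45.1, 27.6 and 28.6 times the 75th percentile. The SD between its spots was 0.04, 0.02 and 0.05 on the log2 scale, far below the differences from mock, -0.71 for *miR-139-5p* and then -0.66 for *miR-139-3p*, although spots of 1 array share a single RNA. The near-identical copy *HSPA1B* read 25.5, 20.2 and 14.9 times the 75th percentile, a log2 fold change of -0.78 for *miR-139-3p*, and how far each probe also takes up RNA of the other copy is not known. *HSPA2*, a form best known from the testis, stood at 7.57, 5.58 and 3.58 times the 75th percentile, a difference of -1.08 between *miR-139-3p* and mock. *HSPA14*, which acts at the ribosome, stood at 17.2, 19.1 and 9.51 times the 75th percentile, lowest on the *miR-139-3p* array, with a log2 fold change of -0.86. The mitochondrial HSP70 *HSPA9* ran the other way, at 14.6, 15.9 and 23.7 times the 75th percentile, a log2 fold change of 0.69 for *miR-139-3p*. The 3 HSP70 genes inside the threshold, *HSPA1L*, *HSPA12A* and *HSPA13*, ranged from -0.49 to -0.26, but *HSPA1L* was at -0.76 under quantile normalization and at -0.01 with normexp background correction, and it was past the threshold under 4 of 11 alternatives and *HSPA12A* under 3.

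**Figure D3:**
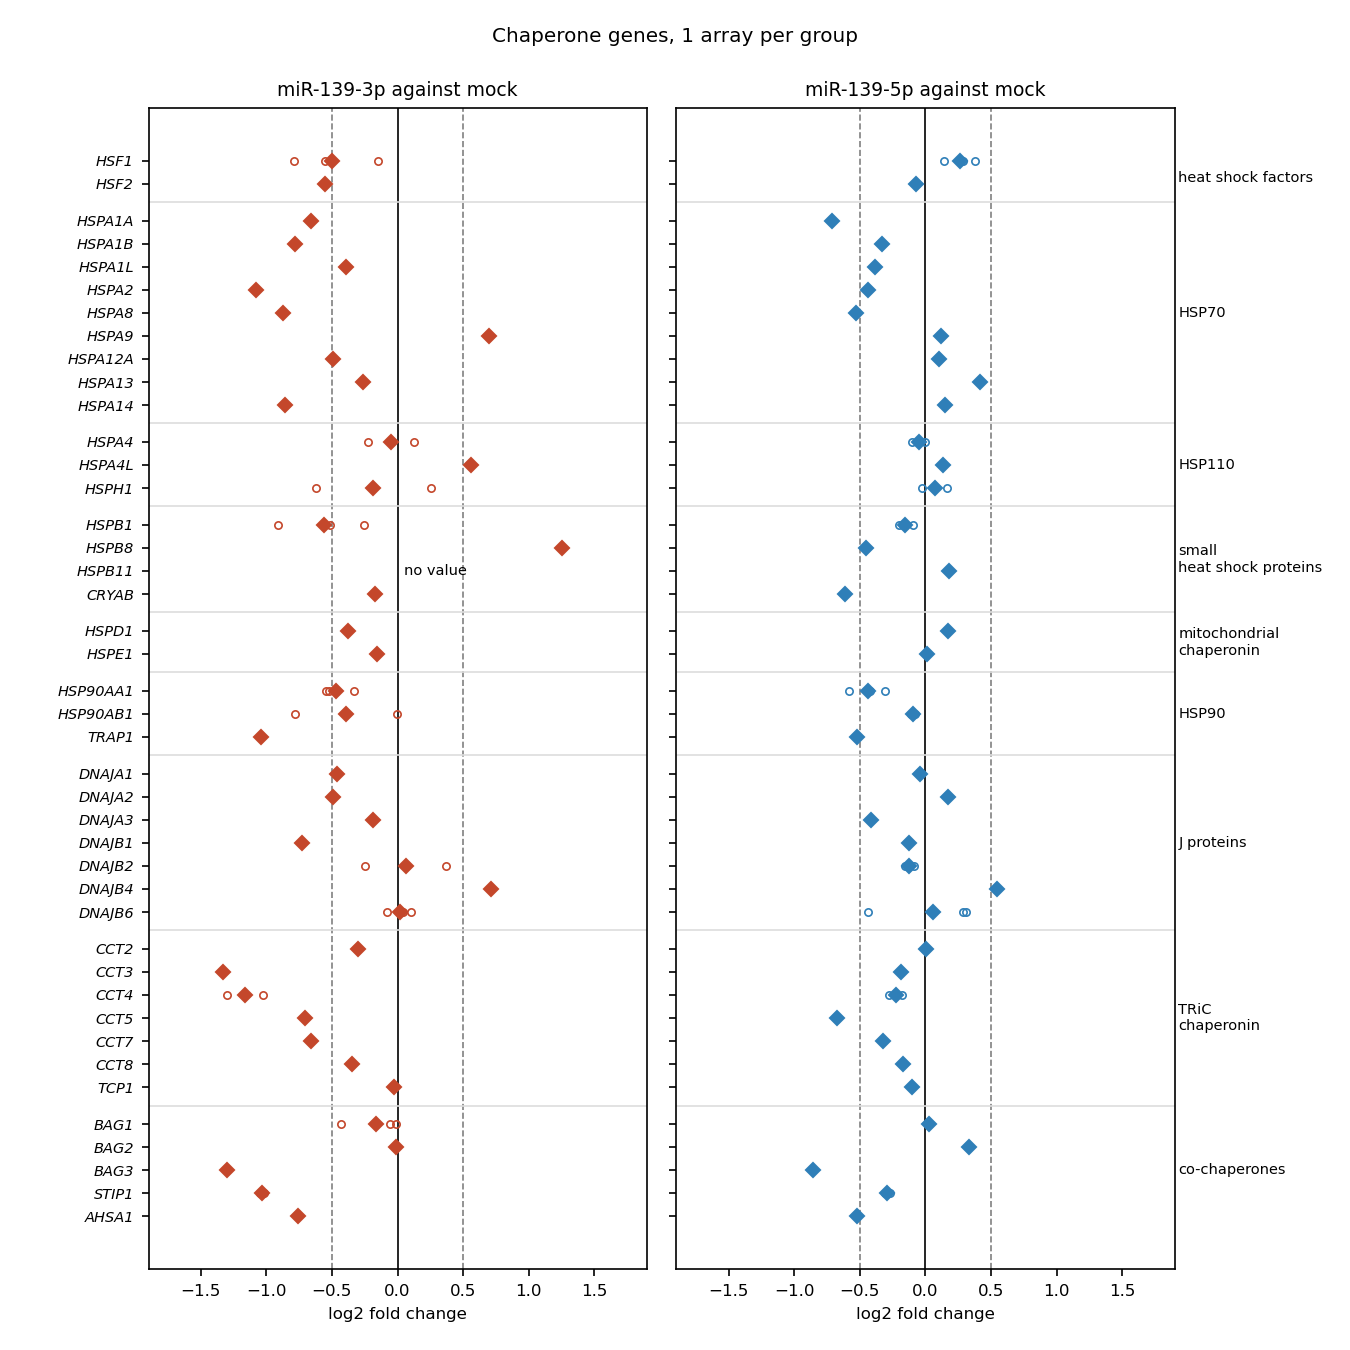
Log2 fold change of each chaperone gene against mock, grouped by role, for *miR-139-3p* (left) and *miR-139-5p* (right). Diamonds are the mean over probes, open circles are single probes where a gene has several, and dashed lines mark 0.5 to either side of 0. *CCT3*, *BAG3* and *CCT4* lie farthest to the left for *miR-139-3p* (-1.33, -1.30 and -1.17) and *HSPB8* farthest to the right (1.25).

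Of the TRiC chaperonin, the ring that folds actin and tubulin, 7 of the 8 subunits are among the 42 genes. Of these 7, 4 were lower with *miR-139-3p* and 0 higher, with a median of -0.66 that was negative under each scaling. The count was 6 with no scaling and with spike-in scaling by the median difference, and 3 with normexp, where the median was -0.37. *CCT3* measured 121, 106 and 48.2 times the 75th percentile, a log2 fold change of -1.33. Both probes of *CCT4* placed the *miR-139-3p* array lowest, the first at 223, 197 and 109 and the second at 99.9, 82.2 and 40.5 times the 75th percentile, with log2 fold changes of -1.03 and -1.30. In 10 spots *CCT7* measured 103, 82.5 and 65.6, a log2 fold change of -0.66 with SDs between spots of 0.05, 0.03 and 0.05. *CCT5* rested on 1 dim probe at 0.405, 0.253 and 0.249 times the 75th percentile and was at -0.70, or -0.22 with normexp. The other subunits measured were inside the threshold, *CCT2* in 10 spots at -0.30, *CCT8* at -0.34 and *TCP1* at -0.03, and the remaining subunit *CCT6A*, one of the further genes below, was at -0.37 (52.0, 52.8 and 40.3 times the 75th percentile). Whether the subunits differ from each other was not tested. The value of *TCP1* came from 1 of its 2 probes, and the other, set aside for a background outlier flag with mock and with *miR-139-5p*, read -1.12. When outlier spots were kept *TCP1* was past the threshold at -0.57.

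Among co-chaperones, which steer clients between HSP70 and HSP90 or out to degradation, 3 of 5 were lower and 0 higher, with a median of -0.76 that was negative under each scaling. *BAG3*, which links HSP70 to selective autophagy and is induced by proteotoxic stress, measured 3.09, 1.71 and 1.25 times the 75th percentile, a log2 fold change of -1.30 for *miR-139-3p*. The adaptor *STIP1*, which bridges HSP70 and HSP90, gave -1.05 and -1.02 from its 2 probes, at 3.88, 3.13 and 1.88 and at 6.82, 5.67 and 3.37 times the 75th percentile. *AHSA1*, an activator of the HSP90 ATPase, measured 17.8, 12.4 and 10.6 over 10 spots, a difference of -0.76 with an SD between spots of 0.06 on each array. The other two, *BAG1* and *BAG2*, were at -0.17 and -0.01.

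**Figure D4:**
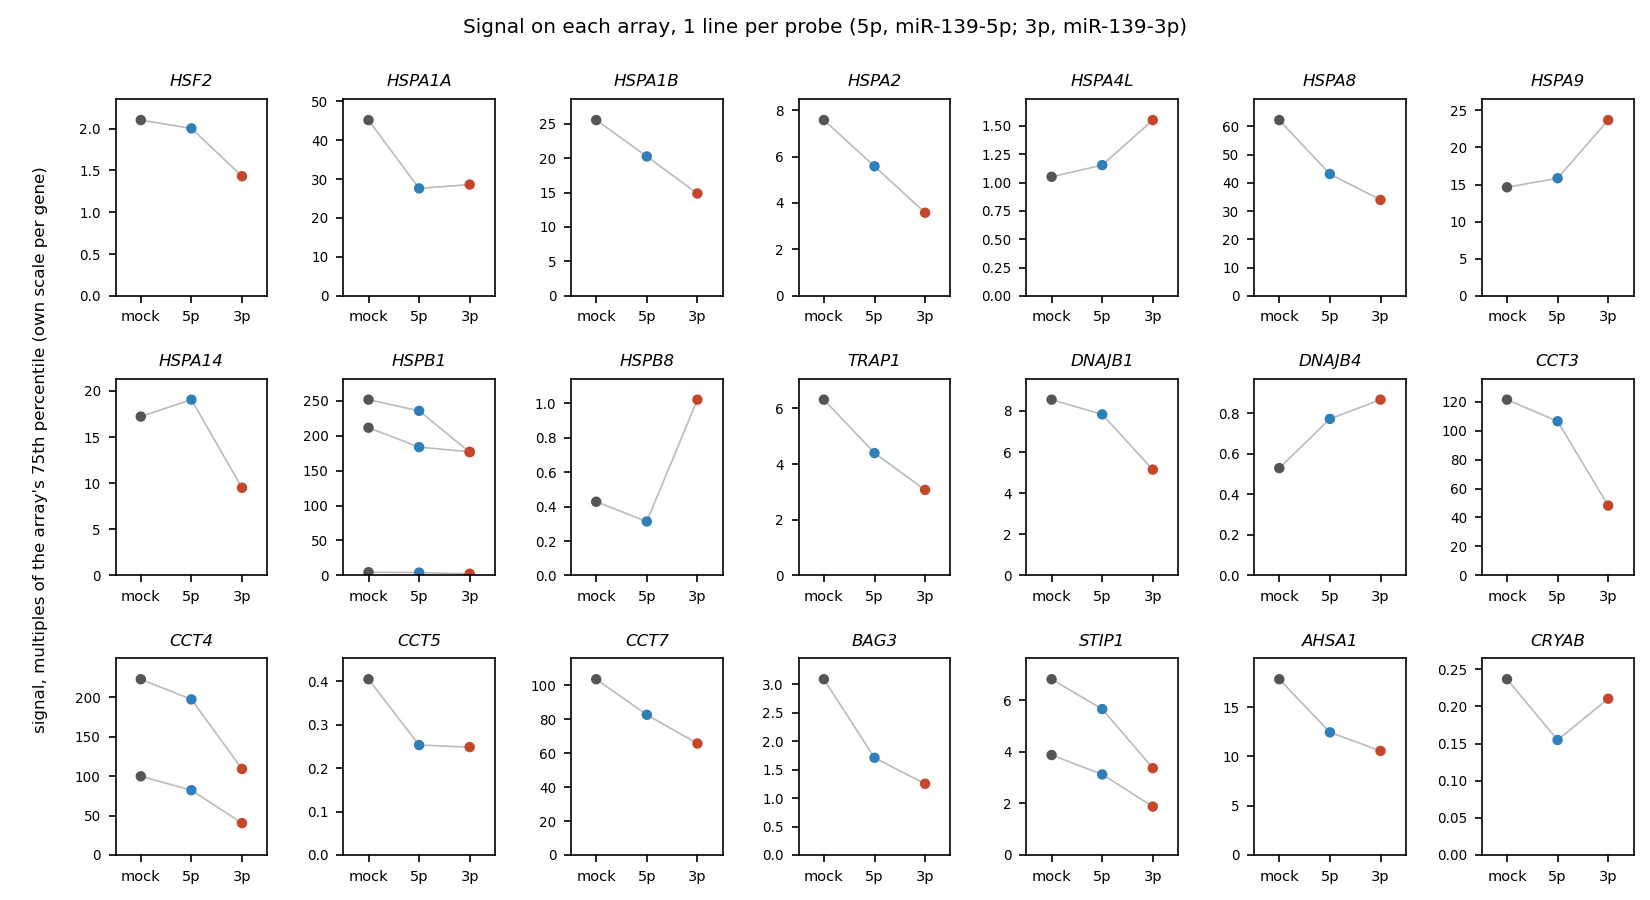
Signal on the mock, *miR-139-5p* (5p) and *miR-139-3p* (3p) arrays, in multiples of the array's 75th percentile, for the 21 chaperone genes past 0.5 on the log2 scale in either comparison with mock. Lines join the values of 1 probe, each panel has its own axis from 0, and each point is 1 array. *CCT3* goes from 121 in mock to 48.2 with *miR-139-3p*, and *HSPB8* from 0.428 to 1.02.

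HSP90 genes had 1 of 3 lower and 0 higher, but 3 lower with no scaling and with spike-in scaling by the median difference, and 2 with normexp or with the brightest probe of each gene. The gene lower in the main processing was *TRAP1*, the mitochondrial form, at 6.32, 4.4 and 3.07 times the 75th percentile, with a log2 fold change of -1.04 for *miR-139-3p*. The cytosolic forms *HSP90AA1* and *HSP90AB1* were at -0.47 (SD 0.12 over 3 probes) and -0.39 (SD 0.55 over 2 probes), and the probes of *HSP90AB1* disagreed, at -0.01 and -0.78. In the mitochondrial chaperonin, *HSPD1* was at -0.37 and its lid *HSPE1* at -0.16, both inside the threshold, though *HSPD1* was at -0.58 with no scaling.

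J proteins, which bring clients to HSP70 and trigger its ATPase, gave 1 lower and 1 higher of 7, with a median of -0.19 that turned to 0.02 under quantile normalization. The counts were 3 and 1 with no scaling, 3 and 0 with spike-in scaling by the median difference and 2 and 0 with normexp. The stress-inducible *DNAJB1* measured 8.55, 7.83 and 5.15 times the 75th percentile, a log2 fold change of -0.73. *DNAJB4* measured 0.530, 0.773 and 0.868, with mock lowest and a log2 fold change of 0.71 for *miR-139-3p* that was 0.32 with normexp. The J proteins *DNAJA1*, *DNAJA3*, *DNAJB2* and *DNAJB6* ranged from -0.46 to 0.06, with the 2 probes of *DNAJB2* at -0.25 and 0.37. *DNAJA2* lay just inside the threshold at -0.50, as did the heat shock factor *HSF1* with -0.50 (SD 0.33 over 3 probes, at -0.79, -0.55 and -0.15). The *HSF1* probe at -0.79 was dim, at 0.158, 0.174 and 0.0912 times the 75th percentile, while the others stood at 51.3 and 49.8 in mock. The other heat shock factor *HSF2* lay just past the threshold at -0.55, with 2.10, 2.0 and 1.43 times the 75th percentile.

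Of the HSP110 genes, nucleotide exchange factors for HSP70, 0 were lower and 1 of 3 was higher, *HSPA4L*, past the threshold at 1.05, 1.15 and 1.55 times the 75th percentile, a log2 fold change of 0.56. With no scaling, with spike-in scaling by the median difference and with normexp 0 were higher. With the brightest probe of each gene 1 was lower and 1 higher. *HSPH1* averaged -0.18 from probes at -0.62 and 0.26, and no direction can be given for the group, whose median of -0.05 was above 0 under quantile normalization, spike-in scaling by median signal and scaling over detected probes. Small heat shock proteins, which hold unfolded proteins without ATP, gave 1 lower and 1 higher of 3, 2 and 1 under quantile normalization and 0 and 1 with spike-in scaling by median signal. *HSPB8*, a partner of *BAG3*, was at 0.428, 0.314 and 1.02 times the 75th percentile, a log2 fold change of 1.25 that was 0.67 with normexp, while *BAG3* was at -1.30. *HSPB1* averaged -0.56 (SD 0.33 over 3 probes, at -0.91, -0.51 and -0.26), with its brightest probe at 252, 236 and 176 times the 75th percentile. *HSPB11*, now named *IFT25* in RefSeq, had no value for *miR-139-3p* since its single spot carried an outlier flag on that array, where it read 7.80 times the 75th percentile against 18.7 in mock.

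The second comparison asked the same of *miR-139-5p* on the slide it shared with mock. Of 42 genes, 7 were lower by more than 0.5 and 1 was higher. Across 13195 protein-coding genes 12.2% were lower and 10.6% were higher, and in the brightest class 6.43% were lower and 6.14% higher. The shares of the chaperone genes were 16.7% lower and 2.38% higher, and those of the brightest class gave 3 lower and 0 higher of 25. Their median was -0.11 against -0.01 for all protein-coding genes, and it turned to 0.01 when arrays were scaled to the E1A spike-ins, where 3 genes were lower and 2 higher and the median of all protein-coding genes was 0.12, with 7.80% lower and 16.4% higher. With no scaling 10 chaperone genes were lower and 0 higher, beside 15.6% and 8.01% of all protein-coding genes. These shares describe 2 arrays and carry no test.

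The 7 lower genes were *BAG3* at -0.85, *HSPA1A* at -0.71, *CCT5* at -0.68, *CRYAB* at -0.61, *HSPA8* at -0.53, *TRAP1* at -0.52 and *AHSA1* at -0.52. *CRYAB*, the alpha B crystallin, was dim at 0.237, 0.155 and 0.21 times the 75th percentile, and was at -0.17 with *miR-139-3p*. Under quantile normalization it was at -0.55 and -0.52 for *miR-139-5p* and *miR-139-3p*, past the threshold with both, so no difference between the strands is drawn from it. The higher gene was *DNAJB4* at 0.54. Of these 8 genes only *BAG3* and *HSPA1A* stayed past the threshold under all 11 alternatives run for single genes, and *HSPA8*, *TRAP1* and *CRYAB* were inside it under 3, *AHSA1* and *DNAJB4* under 2 and *CCT5* under 1. Both comparisons use the 1 mock array, so an error in it would enter both. Side by side, the values with *miR-139-3p* were -1.30 for *BAG3*, -0.66 for *HSPA1A*, -0.70 for *CCT5*, -0.87 for *HSPA8*, -1.04 for *TRAP1*, -0.76 for *AHSA1* and 0.71 for *DNAJB4*. HSP70 genes had a median of -0.33, co-chaperones -0.29, HSP90 genes -0.44, small heat shock proteins -0.30 and TRiC subunits -0.19, with signs that held under each scaling but sizes that did not. The small heat shock proteins counted 4 genes here, as *HSPB11* (*IFT25*), at 0.18, had no value with *miR-139-3p*. The others were *HSPB1* at -0.16, *HSPB8* at -0.45 and *CRYAB* at -0.61. Spike-in scaling brought HSP70 genes to -0.21, co-chaperones to -0.16, small heat shock proteins to -0.18 and TRiC subunits to -0.06, and normexp brought HSP70 genes to -0.09 and small heat shock proteins to -0.16. J proteins were at -0.04, which turned to 0.08 with spike-in scaling. The HSP110 genes were at 0.07, which turned to -0.004 with no scaling, and the mitochondrial chaperonin was at 0.09, which turned to -0.003 with quantile normalization. The 2 heat shock factors were both inside the threshold, *HSF1* at 0.27 (SD 0.12 over 3 probes) and *HSF2* at -0.07. *HSF2* turned to 0.06 with spike-in scaling, so no direction is given for them.

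Set directly against *miR-139-5p*, *miR-139-3p* gave 12 genes lower and 2 higher of 41, where 30.6% of 13449 protein-coding genes were lower and 23 percent higher. The chaperone share of 29.3% lower was no higher than that background. *HSPB8* was at 1.70 and *HSPA9* at 0.58, while *CCT3* was at -1.14, *HSPA14* at -1.0, *CCT4* at -0.94, *HSF1* at -0.76 and *STIP1* at -0.74. This comparison was run with the main processing only. *HSPA1A* was at 0.05 and *CCT5* at -0.03, but under quantile normalization their values against mock were -0.46 and -0.99 with *miR-139-3p* and -0.74 and -0.61 with *miR-139-5p*, so equal signal with either strand is not claimed.

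A further 82 genes were listed around the same machinery, among them chaperones of the endoplasmic reticulum such as *HSPA5* and mitochondrial proteases such as *LONP1*, which lie outside the group described. Of these, 73 could be measured with *miR-139-3p* and with mock, and gave 17 lower, 9 higher and a median of -0.17 (3 of the values were bounds). Their 23.3% lower and 12.3% higher were both below the 30.5% and 23 percent of all protein-coding genes. The lowest were *GRPEL1*, the nucleotide exchange factor of mitochondrial HSP70, at -1.99, the HSP90 co-chaperone *FKBP5* at -1.97, and *CDC37*, which brings kinases to HSP90, at -1.83. *GRPEL1* measured 6.64, 6.61 and 1.67 times the 75th percentile, and *CDC37* measured 11.7, 7.78 and 3.29. *FKBP5* was dimmer, at 0.696, 0.812 and 0.178 from 1 probe. The highest were *CCT6B* at 2.10, a dim probe at 0.146, 0.0951 and 0.625, then *DNAJB5* at 1.42 and *DNAJC27* at 1.09. For *miR-139-5p*, 9 of 71 were lower and 9 higher, 12.7% each way beside 12.2% and 10.6% of all protein-coding genes, with a median of 0.03. *HSPA12B* at -1.58, *PFDN6* at -1.09 and *PTGES3* at -0.76 were lowest, and *DNAJB9*, a J protein of the endoplasmic reticulum, at 1.08, *DNAJC25* at 0.78 and *DNAJB5* at 0.78 were highest. The value of *HSPA12B* rested on 1 dim probe at 0.266, 0.0890 and 0.116 times the 75th percentile, and that of *DNAJC25* on 1 at 0.344, 0.589 and 0.301.

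Heat shock factors bind inverted repeats of the letters GAA, and promoters were searched for 3 units in a row, GAANNTTCNNGAA, which on the other strand reads TTCNNGAANNTTC. RefSeq promoters (GRCh38.p14), each 250 bases before to 50 bases after a start, were at hand for 39 of the 42 genes, and not for *HSF1*, *HSPA14* and *CRYAB*. The element was held by 6 of the 39 genes and by 166 of 27305 genes in all, or 15.4% and 0.608%. Among protein-coding genes 85 of 15843 held it, or 0.537%. Of the further genes listed above, 3 of the 68 with a promoter held it, or 4.41%. Counted by promoter, it was in 6 of 55 for the chaperone genes and in 172 of 35116 in all, or 10.9% and 0.490%. A match of letters is a description and not a bound site. The stretches that hold it are shown because heat shock factors are among the genes described, with the element in capitals and each read 5′ to 3′ on the strand of its gene.
HSPA8, chr11:123062169-123062376, minus strand: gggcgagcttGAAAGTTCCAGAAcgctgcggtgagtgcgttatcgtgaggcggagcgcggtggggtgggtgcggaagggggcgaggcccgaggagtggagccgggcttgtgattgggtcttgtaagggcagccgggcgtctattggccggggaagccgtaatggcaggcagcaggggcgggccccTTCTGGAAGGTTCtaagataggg
HSPD1, chr2:197500058-197500090, minus strand: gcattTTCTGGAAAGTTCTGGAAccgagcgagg
HSP90AA1, chr14:102087110-102087142, minus strand: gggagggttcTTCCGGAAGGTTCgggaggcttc
HSP90AB1, chr6:44247768-44247853, plus strand: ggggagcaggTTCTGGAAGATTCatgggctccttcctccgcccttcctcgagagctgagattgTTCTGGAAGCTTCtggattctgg
DNAJA1, chr9:33025266-33025292, plus strand: gcgccgggcgGAACTTTCCAGAAcgct
DNAJB6, chr7:157336863-157336895, plus strand: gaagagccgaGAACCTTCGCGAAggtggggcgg
In *HSPA8* the 2 elements begin 230 and 55 bases before the start, and in *HSPD1* the 2 overlap. For *HSPD1*, *HSP90AA1* and *HSP90AB1* the element was in the promoter of 1 of several starts, and the probes cannot say which start the RNA came from. With *miR-139-3p* these 6 genes were at -0.87 for *HSPA8*, -0.47 for *HSP90AA1*, -0.46 for *DNAJA1*, -0.39 for *HSP90AB1*, -0.37 for *HSPD1* and 0.02 for *DNAJB6*, so 1 of the 6 was past the threshold, beside 30.5% lower of all protein-coding genes. With no scaling it was 5 of the 6, beside 41.0%, and also 5 with spike-in scaling by the median difference, beside 42.3%. It was 3 with normexp, beside 21.3%, and 2 with the brightest probe of each gene, beside 31.0%.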

How the data were processed

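Total RNA of 3 A549 cultures was labelled with Cy3 and scanned by the authors, and the intensity of each spot was deposited as a background-subtracted processed signal from Agilent Feature Extraction 12.1.1.1, on an array designed on hg19. A table of log2 values was deposited too. Set against the spot signals it was quantile normalized by the authors, with a median of 2.21 in each column and a difference from such values, computed here, of 0.005 or less for 95% of probes above background. Here log2 processed signals were averaged over the spots of a probe, with outlier spots left out (614 for mock, 935 for *miR-139-5p*, 1526 for *miR-139-3p*), and scaled to the 75th percentile of each array (93.6, 88.9 and 81.0). A probe counted where 50% or more of its spots were well above background. The value of a gene was the mean difference over probes that counted on both arrays. Where a gene had such probes on 1 array only, a bound was taken against the lowest signal above background; no chaperone gene of the 42 needed one. Of 58201 probes, 31104 were named through RefSeq accessions (GRCh38.p14), and as the builds differ no gene positions are given beside the promoters and miRNAs.

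All 42 genes are described by role. Those past 0.5 on the log2 scale in either comparison with mock are given by their signals, and from the 82 further genes the 3 highest and 3 lowest with a probe that counted on both arrays are named. The members and lists were chosen with earlier results of these data known. Precision is limited by the number of arrays. Genes with several probes had a median SD between them of 0.28 in the *miR-139-3p* comparison with mock, and of 0.15 in that of *miR-139-5p*. The steps were tested on simulated arrays, copies of the mock array with small noise and a small set of genes shifted. These kept the background and outlier flags of mock, so they could not check the filter, nor the scaling where much of the transcriptome changes. Alternatives changed the scaling, background correction (limma 3.58.1 in R 4.3.3), dim probe filter, probe choice, outlier spots, source of values and threshold. Python 3.11.15 with numpy 2.4.6 and pandas 2.3.3 was used.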

Additional observations from a re-analysis of the deposited data

How the results depend on the processing

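No paired analysis was possible because each group was 1 array, and for the same reason there was no replicate to leave out. Of the 20 chaperone genes past the threshold with *miR-139-3p*, 13 were past it in the same direction under all 11 alternatives run for single genes, and of the 8 with *miR-139-5p*, 2 were. No gene past the threshold changed sign.

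For *miR-139-3p*, 26 genes were lower and 2 higher with no scaling, 26 lower and 1 higher with spike-in scaling by the median difference from mock, which was chosen after seeing the data, and 17 lower and 2 higher with normexp correction (41.5% and 4.88%, beside 21.3% and 8.82% of all protein-coding genes). At a threshold of 1, 6 were lower and 1 higher (14.6% and 2.44%, beside 12.9% and 10.3%), and in the brightest 25% of genes, also chosen after seeing the data, 10 were lower and 1 higher of 25. For *miR-139-5p*, both ways of spike-in scaling gave 3 lower, 2 higher and a median of 0.012, no scaling gave 0 higher, normexp gave 3 lower and 0 higher (beside 4.61% and 3.56% of all protein-coding genes), a threshold of 1 gave 0 lower and 0 higher (beside 2.36% and 1.85%), and the brightest 25% gave 3 lower and 0 higher of 25. The smaller counts at a threshold of 1 and in the brightest class follow from how they are made, and the cause of the others was not tested.

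The 7 spike-in probes did not shift by 1 amount from mock to *miR-139-3p*. Relative to the 75th percentile they ran from -0.07 to 0.35, with a median of 0.23, and the scaling by median signal followed the probe at -0.07. With normexp correction *CCT5* came to -0.22, *DNAJB4* to 0.32, *HSPB8* to 0.67, *BAG3* to -0.93 and *HSPA1L* to -0.01 for *miR-139-3p*. For *miR-139-5p* *CCT5* came to -0.17, *CRYAB* to -0.19, *DNAJB4* to 0.17 and *BAG3* to -0.59. The normexp correction was run on median spot signals and adds an offset of 50. In mock the processed signals before scaling were 37.9 for *CCT5*, 22.1 for *CRYAB*, 22.1 for *HSPA1L*, 40.1 for *HSPB8*, 49.6 for *DNAJB4* and 289 for *BAG3*. How much of these changes came from the offset was not tested. Signal over background limits which genes have a value, and many rest on 1 probe in 1 spot.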
